A study of Mus musculus with 6 samples.

Results

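Collagen maturation and crosslinking genes, 10 in all, were followed in mouse embryonic stem (ES) cells that carried a Prmt6 expression plasmid or the empty vector. They were Serpinh1, P4ha1, P4ha2, Plod1, Plod2, Plod3, Lox, Loxl1, Loxl2 and Sparc, listed by their known roles. A gene was read by the probe set that the platform annotation assigns to it alone, and 9 of the 10 had such a probe set, among 19938 genes measured in that way. Loxl2, a lysyl oxidase relative, was read only by a probe set annotated with several genes and has no value here. Each of the 9 had 1 probe set.

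The cells were HM1, a mouse ES cell line, grown in 15% serum with leukemia inhibitory factor (LIF, 1000 U/ml), a cytokine that keeps mouse ES cells undifferentiated. The control group (3 arrays) had received the empty pCAGIP.puro vector and the overexpression group (3 arrays) the same vector with mouse Prmt6, a nuclear arginine methyltransferase that acts on histones. Both groups spent 3 days in puromycin at 1 μg/ml, so all the RNA came from transfected, drug-selected populations, measured on 1 Affymetrix array per sample. The labels do not say whether replicates were separate cultures, so the p-values measure the scatter among these arrays alone, and that scatter may be technical.

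Collagen chains are modified while still in the endoplasmic reticulum (ER). Prolyl 4-hydroxylases stabilise the triple helix, lysyl hydroxylases prepare lysines for sugars and crosslinks, and the chaperone encoded by Serpinh1 (HSP47) binds the folded helix on its way out of the ER. Outside the cell, proteinases remove the propeptides, and lysyl oxidases oxidise lysines so that fibrils and elastin become crosslinked. Sparc is a secreted collagen-binding glycoprotein. In the early embryo, basement membrane is made in large amount by parietal endoderm.

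With the Prmt6 plasmid, Serpinh1, Lox, Sparc and Plod2 rose, by 3.22-fold, 2.85-fold, 2.43-fold and 1.37-fold. The other 5 measured genes did not pass the test, and 4 of these had a positive difference of 0.19 to 0.34 on the log2 scale, while P4ha2 was at -0.16. The 4 rises among 9 genes (44.4%) stood beside 7.05% of all 19938 genes called higher. No member was called lower (0 of 9, limma), where 3.25% of all genes were, and at an unadjusted p under 0.05 there were 8 members higher and 0 lower, beside 14.1% and 10.4% of all genes. The median difference of the 9 genes was 0.34, against 0.00 over all genes. The genes had been chosen with earlier results of these data known, so the counts describe them and are not a test of the group.

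Promoter sequences are shown for a pair of genes that rose together, Serpinh1 and Sparc, and for the prolyl 4-hydroxylase pair P4ha1 and P4ha2, whose differences had opposite signs without passing the test. They are the 250 bases before the RefSeq start in GRCm38.p6, 5′ to 3′ on the gene's strand. The windows lie at chr7:99353240-99353489 (Serpinh1, minus strand), chr11:55420081-55420330 (Sparc, minus strand), chr10:59323046-59323295 (P4ha1, plus strand) and chr11:54100674-54100923 (P4ha2, plus strand). Capitals mark the GC box (GGGCGG) and the core of the hypoxia element (ACGTG), each on either strand.
Serpinh1: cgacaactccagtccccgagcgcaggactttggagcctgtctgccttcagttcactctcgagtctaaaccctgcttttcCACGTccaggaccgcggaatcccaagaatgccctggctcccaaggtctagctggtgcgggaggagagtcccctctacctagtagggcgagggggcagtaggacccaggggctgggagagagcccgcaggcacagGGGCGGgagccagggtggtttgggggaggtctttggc
Sparc: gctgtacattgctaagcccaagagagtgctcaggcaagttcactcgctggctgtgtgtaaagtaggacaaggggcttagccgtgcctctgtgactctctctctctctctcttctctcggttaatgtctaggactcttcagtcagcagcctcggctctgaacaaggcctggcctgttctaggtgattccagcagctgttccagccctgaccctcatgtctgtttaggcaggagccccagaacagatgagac
P4ha1: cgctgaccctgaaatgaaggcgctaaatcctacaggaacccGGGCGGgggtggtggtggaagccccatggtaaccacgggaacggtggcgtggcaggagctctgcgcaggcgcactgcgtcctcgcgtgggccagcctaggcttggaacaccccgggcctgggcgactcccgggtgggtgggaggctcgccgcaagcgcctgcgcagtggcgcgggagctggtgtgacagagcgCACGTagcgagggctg
P4ha2: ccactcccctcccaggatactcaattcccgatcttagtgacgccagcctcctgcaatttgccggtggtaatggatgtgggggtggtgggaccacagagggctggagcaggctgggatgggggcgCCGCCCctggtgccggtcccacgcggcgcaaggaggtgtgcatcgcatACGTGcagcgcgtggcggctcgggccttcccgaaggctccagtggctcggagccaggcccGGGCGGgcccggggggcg

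Promoters were found in the RefSeq table for 6 of the 10 genes, the 4 shown and those of Plod1 and Plod3. The GC box was present in 4 of these 6 windows (P4ha1, P4ha2, Plod1 and Serpinh1), and 32.7% of all 32851 promoter windows hold it. The hypoxia element core was present in 4 of 6 (P4ha1, P4ha2, Plod3 and Serpinh1), against 16.6% of all windows. In Serpinh1 the GC box lay 37 to 32 bases and the hypoxia core 171 to 167 bases before the start. In P4ha1 the hypoxia core lay 16 to 12 bases before it, and in P4ha2 78 to 74 bases. The Sparc window held none of the 10 motifs searched and had the lowest GC content of the 6, 54.0%, against a median of 52.4% over all windows and 70.0% in P4ha2. Of the other motifs, the TATA box (TATAAA) was found in Plod1 and the CCAAT box (CCAAT) in Plod3, each in 1 of 6 windows, against 12.4% and 33.8% of all windows. The Plod1 match lay on the opposite strand, 232 to 227 bases before the start. Over all windows, a TATA box on the gene's strand most often opened 29 bases before the start. The Plod3 match also lay on the opposite strand, 188 to 184 bases before the start. None of the 6 held a heat shock element (GAANNTTC, 6.69% of all windows), an AP-1 site (TGANTCA, 6.75%), a TEAD site (GGAATG, 12.6%), a SMAD element (GTCTAGAC, 0.167%), a CArG box (1.47%) or an ER stress element (0.113%). Both strands were searched, and the ER stress element contains the CCAAT box. A match describes letters in this window and is not evidence of binding.

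Prmt6 itself was read at log2 signals of 6.84, 6.58 and 7.12 in control and 7.32, 7.40 and 7.33 in overexpression, so the groups did not overlap. Its difference was 0.50 ± 0.127 (SE, limma, adjusted p = 0.0406), and the position of its probes relative to the cloned part was not analysed here. The SD was 0.27 in control and 0.0436 in overexpression, and whether the call holds with 1 array left out is not reported here. Of the ES cell markers, 2 of 19 rose (10.5%) and 4 fell (21.1%), beside 7.05% and 3.25% of all genes. When 1 array was left out, 0 to 2 were higher and 1 to 3 lower. The falls were those of Fbxo15, Tdgf1, Nanog and Sox2. The mean log2 signal of the 19 markers per array was 9.42 to 9.51 in control and 9.44 to 9.46 in overexpression. Pou5f1, the gene of Oct4 and named after its values were seen, lay at 11.06 to 11.20 in control and 11.23 to 11.41 in overexpression (difference 0.19 ± 0.0789, adjusted p = 0.19). Over all genes, 1405 were called higher and 647 lower. Without control replicate 1 there were 862 and 280, without control replicate 2 there were 978 and 321, without control replicate 3 there were 898 and 297, and without overexpression replicate 2 there were 1036 and 328.

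**Figure D1:**
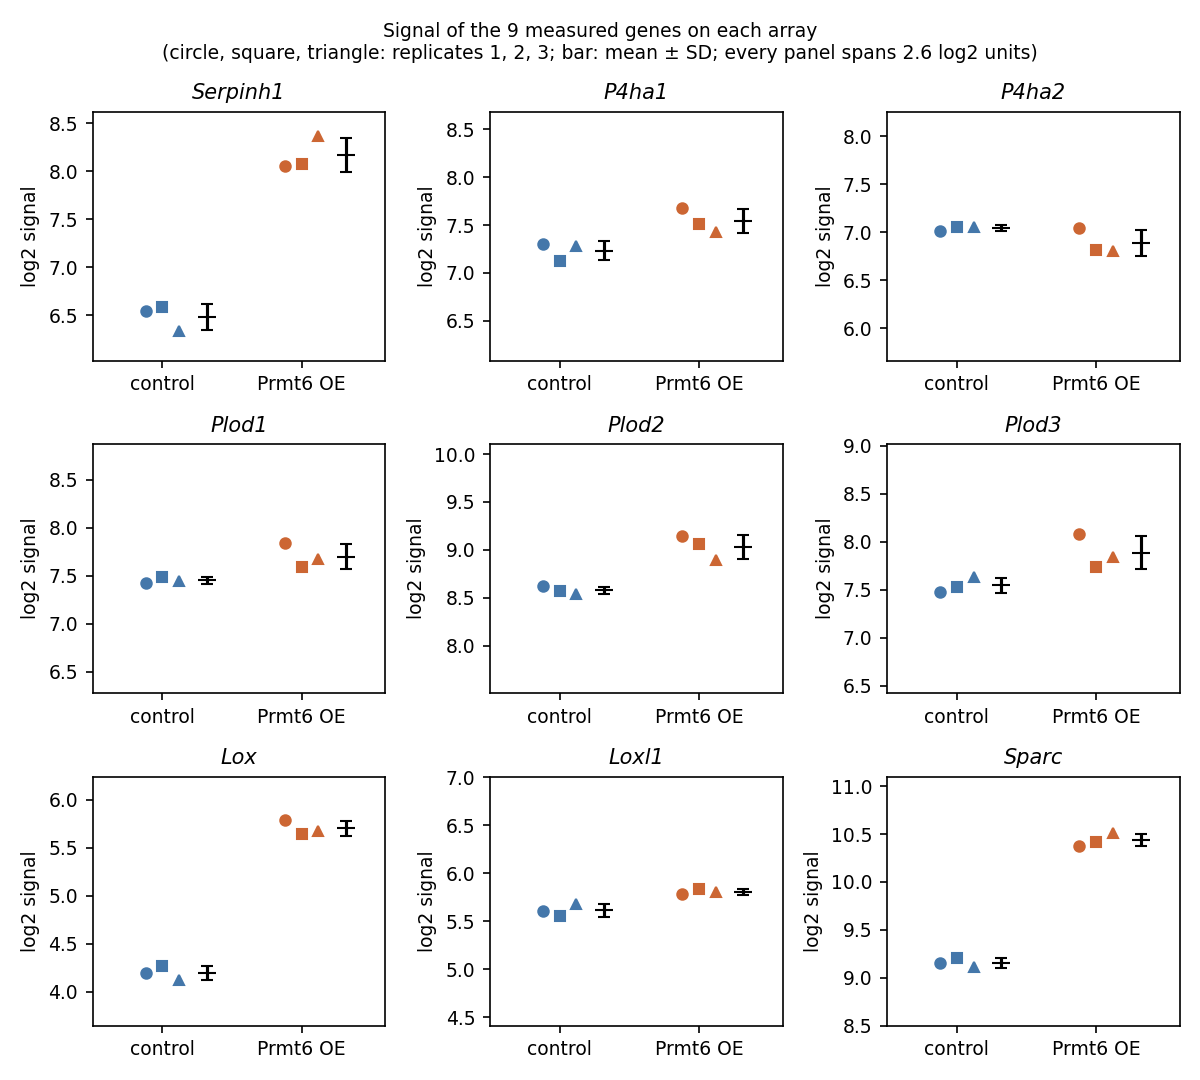
Log2 signal (y axis) of the 9 measured genes on the 3 control arrays (blue) and the 3 Prmt6 overexpression arrays (orange, "Prmt6 OE"). Circles, squares and triangles are replicates 1, 2 and 3, and the black bar is the mean ± SD. Serpinh1, Lox and Sparc stand well apart between the groups, while P4ha2 overlaps.

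Serpinh1 encodes the collagen-specific ER chaperone. Its log2 signal was 6.54, 6.58 and 6.33 on the control arrays and 8.06, 8.08 and 8.37 on the overexpression arrays. All 3 overexpression arrays lay above all 3 control arrays, with a gap of 1.48 between the nearest ones. The difference was 1.69 ± 0.109 on the log2 scale (SE, n = 3 per group, limma adjusted p = 3.44e-05), with a 95% interval of 1.44 to 1.94. Of all genes, 54 others had a larger rise, which places it at rank 55.

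Prolyl 4-hydroxylases need an alpha subunit that carries the active site, and P4ha1 and P4ha2 encode such subunits. P4ha1 was at 7.30, 7.12 and 7.28 in control and 7.68, 7.51 and 7.43 in overexpression. These groups did not overlap, but the gap was 0.13, and the difference of 0.31 ± 0.0911 did not pass (limma adjusted p = 0.073). P4ha2 was at 7.01, 7.06 and 7.06 in control and 7.04, 6.81 and 6.80 in overexpression. Overexpression replicate 1 lay within the control range and replicates 2 and 3 lay below it. The difference of -0.16 ± 0.085 did not pass (adjusted p = 0.298), and its interval ran from -0.35 to 0.03.

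The pair was also compared within arrays, a comparison chosen after the values were seen. The log2 ratio of P4ha1 to P4ha2 was 0.29, 0.06 and 0.22 on the control arrays and 0.64, 0.70 and 0.63 on the overexpression arrays, without overlap. It shifted by 0.47, from 0.19 ± 0.118 to 0.66 ± 0.0379 (SD, n = 3 each). The two-sided exact permutation test gave p = 0.1, the smallest that 3 against 3 can give (0.167 after Benjamini-Hochberg adjustment over 5 such pairs). The P4ha1 call changed with the processing. It passed when the dimmest genes were removed (adjusted p = 0.0331 for a filter at the 30th percentile of mean signal, 0.015 for one at the median). It also passed when the variance prior was trended and robust (0.0174) and when arrays were weighted (0.049).

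Plod1, Plod2 and Plod3 encode the lysyl hydroxylases. Plod2, which hydroxylates lysines in the telopeptides that later form crosslinks, was at 8.62, 8.57 and 8.54 in control and 9.14, 9.06 and 8.89 in overexpression. The groups did not overlap, and the difference was 0.45 ± 0.0837 (SE, n = 3 per group, limma adjusted p = 0.0106). Its adjusted p stayed under 0.05 without any 1 array, but lay as high as 0.0492 without control replicate 3. Plod2 was the only member called higher that rose by less than 1.5-fold.

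Plod3, an enzyme that also adds glucose to hydroxylysine, was at 7.48, 7.53 and 7.63 in control and 8.08, 7.74 and 7.84 in overexpression. The groups were 0.11 apart, overexpression replicate 1 was the highest, and the difference of 0.34 ± 0.0997 did not pass (adjusted p = 0.0698). Plod1, the lysyl hydroxylase of the helical part of the chains, was at 7.42, 7.49 and 7.45 in control and 7.84, 7.59 and 7.67 in overexpression. Its groups were 0.10 apart, and the difference of 0.25 ± 0.0833 did not pass (adjusted p = 0.106). Plod3 passed after centring the arrays on their medians (0.0443), with either filter on dim genes (0.0314 and 0.0139) and with the trended and robust prior (0.0124). Plod1 passed after the filter at the median (0.0272) and with that prior (0.0356).

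Within arrays, the log2 ratio of Plod2 to Plod1 shifted by 0.21 and did not overlap between groups (exact permutation p = 0.1, adjusted 0.167). The shifts of Plod2 against Plod3 (0.11) and of Plod3 against Plod1 (0.09) came with overlapping groups (exact permutation p = 0.4 and 0.3). With 3 arrays against 3 this test cannot go below 0.1, so whether the family members differ in their change is not settled by these arrays.

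**Figure D2:**
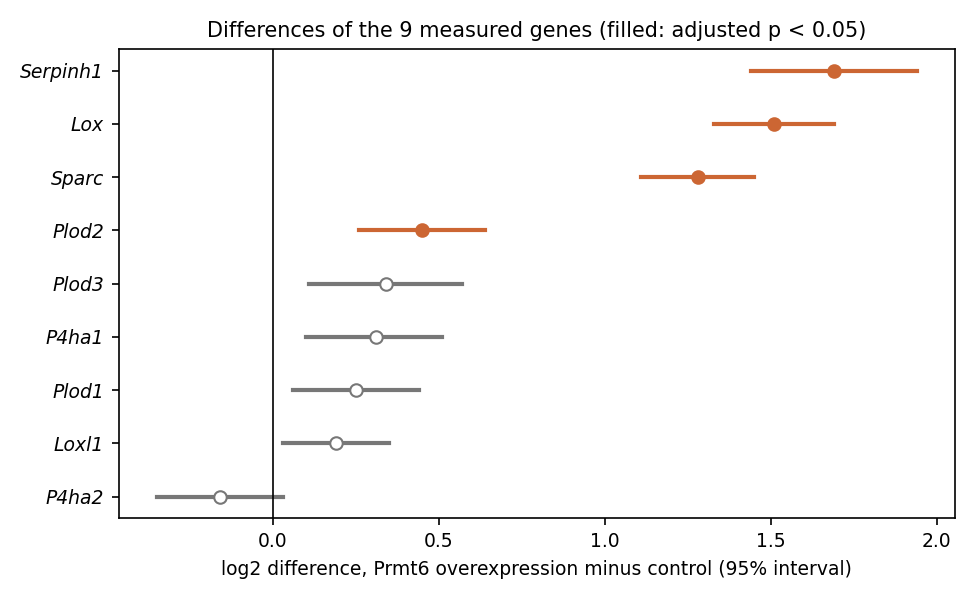
Log2 difference, overexpression minus control (x axis), of the 9 measured genes with 95% intervals from limma; filled orange points have an adjusted p under 0.05. Serpinh1, Lox and Sparc lie between 1.28 and 1.69, Plod2 lies at 0.45, and P4ha2 has an interval that spans 0.

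Lox and Loxl1 encode copper-dependent amine oxidases that start crosslinking of collagen and elastin. Lox was at 4.19, 4.27 and 4.12 in control and 5.79, 5.64 and 5.68 in overexpression. The nearest arrays of the groups were 1.37 apart, and the difference was 1.51 ± 0.0776 (SE, n = 3 per group, limma adjusted p = 8.76e-06). Lox thus had the smallest adjusted p of the 9 genes. Its control signal lay below the median over all probe sets of every array (5.54 to 5.62), and its overexpression signal was close above that median. Probe sets without a gene symbol enter that median. Among the measured genes alone, the filter at the median of mean signal removed both Lox and Loxl1. Detection calls were not used here, so how far the control signal lies above background is not known.

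Loxl1, which crosslinks elastin in particular, was at 5.61, 5.55 and 5.68 in control and 5.78, 5.84 and 5.80 in overexpression. The groups did not overlap, with a gap of 0.10, and the difference of 0.19 ± 0.0706 did not pass (adjusted p = 0.131). The log2 ratio of Lox to Loxl1 within an array moved from -1.42 ± 0.14 to -0.10 ± 0.106 (SD, n = 3 each). That is a shift of 1.32 with no overlap (exact permutation p = 0.1, the smallest possible, adjusted 0.167).

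Sparc gave log2 signals of 9.15, 9.21 and 9.11 in control and 10.38, 10.42 and 10.51 in overexpression. No array of either group came closer than 1.17 to the other group. The difference was 1.28 ± 0.0726 (SE, n = 3 per group, limma adjusted p = 1.54e-05), with a 95% interval of 1.11 to 1.45. It ranked 118 among the rises of all genes, beside 74 for Lox and 855 for Plod2.

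In all, 8 of the 9 genes had every overexpression array above every control array, where 17.0% of all genes did. Adjusted p for Serpinh1, Lox and Sparc stayed at or under 0.000581 without any 1 array. With the trended and robust variance prior, 7 members were called higher, beside 10.3% of all genes.

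**Figure D3:**
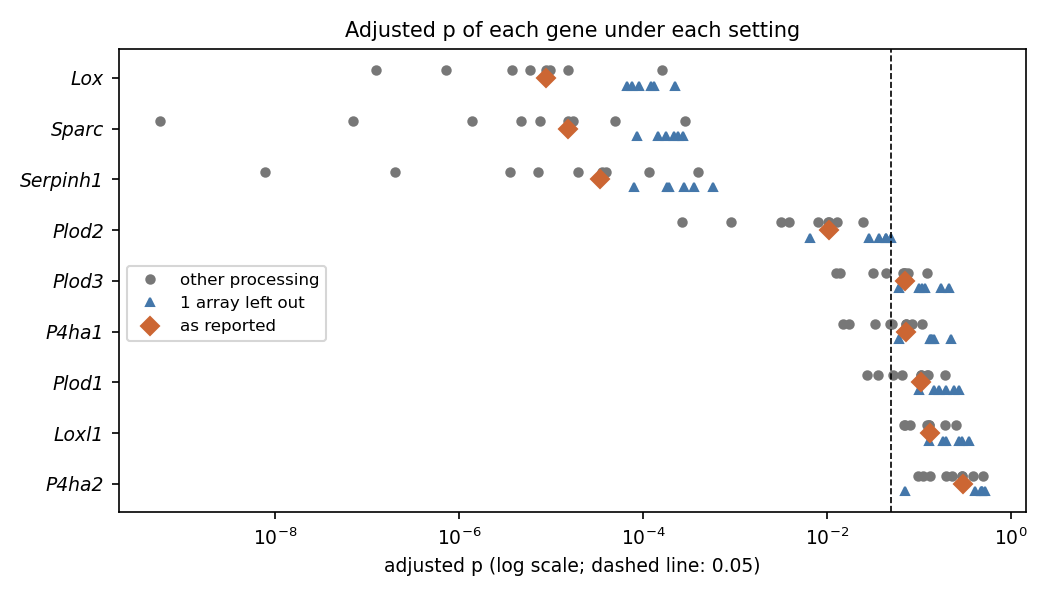
Adjusted p from limma (x axis, log scale) of each measured gene as reported (orange diamonds), with 1 array left out (blue triangles) and under the other processing settings (grey circles). The dashed line marks 0.05. Lox, Sparc, Serpinh1 and Plod2 stay left of the line in every setting drawn, while Plod3, P4ha1 and Plod1 lie on both sides.

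The overexpression arrays differed in which genes they had highest. Overexpression replicate 1 was the highest of the 3 for all 5 hydroxylase genes (P4ha1, P4ha2, Plod1, Plod2 and Plod3) and for Lox. Its deviations from the control mean were 0.56 for Plod2, 0.53 for Plod3, 0.45 for P4ha1 and 0.39 for Plod1, against 0.31, 0.29, 0.20 and 0.22 in replicate 3. Serpinh1 and Sparc were highest in replicate 3, at 1.89 and 1.35 above the control mean, beside 1.58 and 1.22 in replicate 1. Over the 9 genes the median deviation was 0.53 in replicate 1, 0.28 in replicate 2 and 0.29 in replicate 3. Without overexpression replicate 1 the median difference was 0.24, in place of 0.34. Signal over the members' probe sets is not comparable between genes, so only deviations are set side by side.

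**Figure D4:**
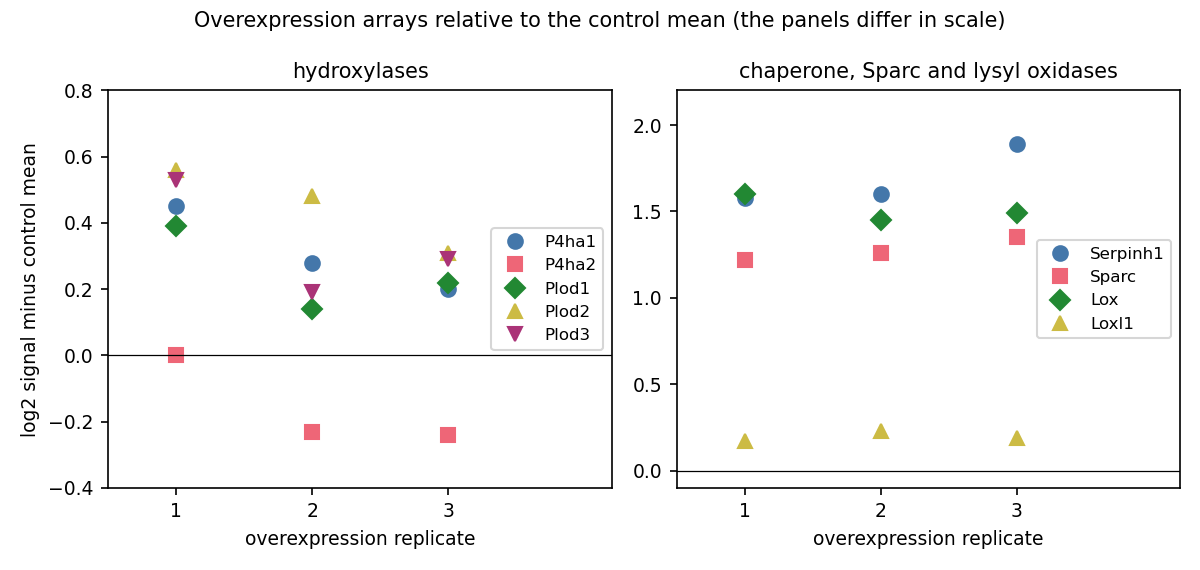
Log2 signal minus the control mean (y axis) on overexpression replicates 1, 2 and 3 (x axis), for the hydroxylases (left) and for Serpinh1, Sparc and the lysyl oxidases (right, on a wider scale). The hydroxylases are highest in replicate 1, and Serpinh1 and Sparc in replicate 3.

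By profile over the 6 arrays, each taken relative to its own control mean, the genes most like Serpinh1 were Cd44, a hyaluronan receptor (root mean square difference 0.0959 on the log2 scale), and Cav1, a coat protein of caveolae (0.112). Those most like Lox were Itga3, an integrin subunit that binds laminin (0.0482), and Actn1, an actin crosslinker (0.0495). Those most like Sparc were Pxdn (0.0398), the peroxidase that crosslinks collagen IV, and Dusp1, a phosphatase of MAP kinases (0.0486). Pxdn was at 6.80, 6.81 and 6.83 in control and 8.05, 8.09 and 8.21 in overexpression. Likeness over 6 arrays mostly reflects the size of the difference between the groups.

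Of the other modifying enzymes and ER partners of collagen, 3 of 21 measured genes rose and 0 fell (median 0.07), beside 7.05% and 3.25% of all genes. P3h4, named in the prolyl 3-hydroxylase family, was at 5.96, 5.90 and 5.96 in control and 7.33, 7.03 and 7.17 in overexpression, a rise of 1.24 ± 0.0891 (adjusted p = 6.7e-05). Fkbp7, an ER prolyl isomerase, rose by 0.52 ± 0.113, and Crtap, which joins the prolyl 3-hydroxylase complex, by 0.39 ± 0.068. The Fkbp7 call ended without control replicate 1 (limma adjusted p = 0.0521), 2 (0.0524) or 3 (0.0829) or overexpression replicate 2 (0.0591). Some partners were picked out after their values were seen. P4hb, the beta subunit of prolyl 4-hydroxylase, was at 11.11, 11.08 and 11.08 in control and 11.31, 11.27 and 11.32 in overexpression, and its difference of 0.21 ± 0.0657 did not pass (adjusted p = 0.0857). P3h1, a prolyl 3-hydroxylase, was at 0.04 ± 0.0657 and Colgalt1, which adds galactose to hydroxylysine, at 0.07 ± 0.0685, without passing (0.795 and 0.619). In the list, 5 genes were called higher after the filter at the 30th percentile, after centring the arrays on their medians, and with the trended and robust prior.

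Among 14 genes of procollagen secretion, 2 rose (14.3%) and 0 fell (median 0.15), beside 7.05% and 3.25% of all genes. They were Creb3l1, an ER-bound transcription factor that acts on collagen genes (0.42 ± 0.0691), and Sar1a, the small GTPase that starts the coat of ER transport vesicles (0.40 ± 0.07, adjusted p = 0.00623 and 0.00829). Of 10 measured genes of propeptide processing, 3 rose and 0 fell (median 0.02). Bmp1 encodes the procollagen C-proteinase, which also cleaves the lysyl oxidase precursor. It was at 6.55, 6.65 and 6.55 in control and 8.34, 8.50 and 8.48 in overexpression, a rise of 1.86 ± 0.0768 (3.62-fold, limma adjusted p = 2.96e-06). That is more than any of the 9 members rose. Pcolce, an enhancer of that proteinase, rose by 1.04 ± 0.0682, and Furin, a convertase that activates precursor proteins, by 1.03 ± 0.0834. The tolloid-like gene Tll1, named after its value was seen, was at 0.03 ± 0.0854 without passing.

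Of 8 genes for the other lysyl oxidases and for copper and ascorbate supply, 2 rose (25.0%) and 0 fell (median 0.00). The shares over all genes were 7.05% higher and 3.25% lower. Loxl4 was at 5.06, 5.21 and 5.28 in control and 5.78, 5.71 and 5.86 in overexpression, a rise of 0.60 ± 0.084 (adjusted p = 0.00272). Slc23a1, which carries ascorbate, a cofactor of the hydroxylases, into cells, rose by 0.46 ± 0.0933 (0.017). That call ended without control replicate 1 (limma adjusted p = 0.075) or 2 (0.0523), and 1 gene of the list was then called. Loxl3, named after its value was seen, was at -0.06 ± 0.11 without passing. In the Sparc family, Fstl1 rose by 0.36 ± 0.0683 (adjusted p = 0.0114) and 6 of 7 genes did not pass. The Fstl1 call ended without control replicate 1 (limma adjusted p = 0.0602) or 3 (0.0508), which left 0 of 7 higher. No member of the family was called lower (limma), but 3 of 7 were lower at an unadjusted p under 0.05, beside 10.4% of all genes. Smoc1, named after its value was seen, was at -0.32 ± 0.0931 (adjusted p = 0.0704), and it passed downward after the filter at the 30th percentile (0.0317), under quantile normalization (0.0434), with the trended and robust prior (0.0466) and with array weights (0.0391). Spock3, named in the same way, passed downward without overexpression replicate 1 (limma adjusted p = 0.0471) and with array weights (0.0465).

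The substrates and fibril partners of these enzymes were also counted. Of 28 collagen chain genes, 9 rose (32.1%) and 0 fell (median 0.05), beside 7.05% and 3.25% of all genes. The 9 became 7 without control replicate 1, 2 or 3, without overexpression replicate 2 or 3, and with the replicate block. At the top were the basement membrane chains Col4a2 (2.82-fold, SE 0.0751 on the log2 scale) and Col4a1 (1.49 ± 0.111) and the fibrillar chain Col1a1 (1.34 ± 0.119). Of 17 fibril and elastic fibre partners, 7 rose (41.2%) and 0 fell (median 0.22). Tgm2, a transglutaminase that crosslinks matrix proteins, rose by 1.35 ± 0.12, Ltbp1, which binds latent TGF-beta, by 1.18 ± 0.0719, and fibronectin (Fn1) by 0.99 ± 0.0718. In that list 4 genes were higher without control replicate 3, and 1 was lower and 5 higher without overexpression replicate 3. It also had 1 lower under quantile normalization, with the trended and robust prior and with array weights. Of 13 genes of collagen uptake and breakdown, 5 rose (38.5%) and 1 fell (7.69%). The largest rises were those of the membrane collagenase Mmp14 (1.17 ± 0.0845) and the cathepsins Ctsb (0.86 ± 0.0809) and Ctsl (0.62 ± 0.0671). The fall was that of Ddr2, a collagen receptor kinase (-0.41 ± 0.0743), named after its value was seen.

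**Figure D5:**
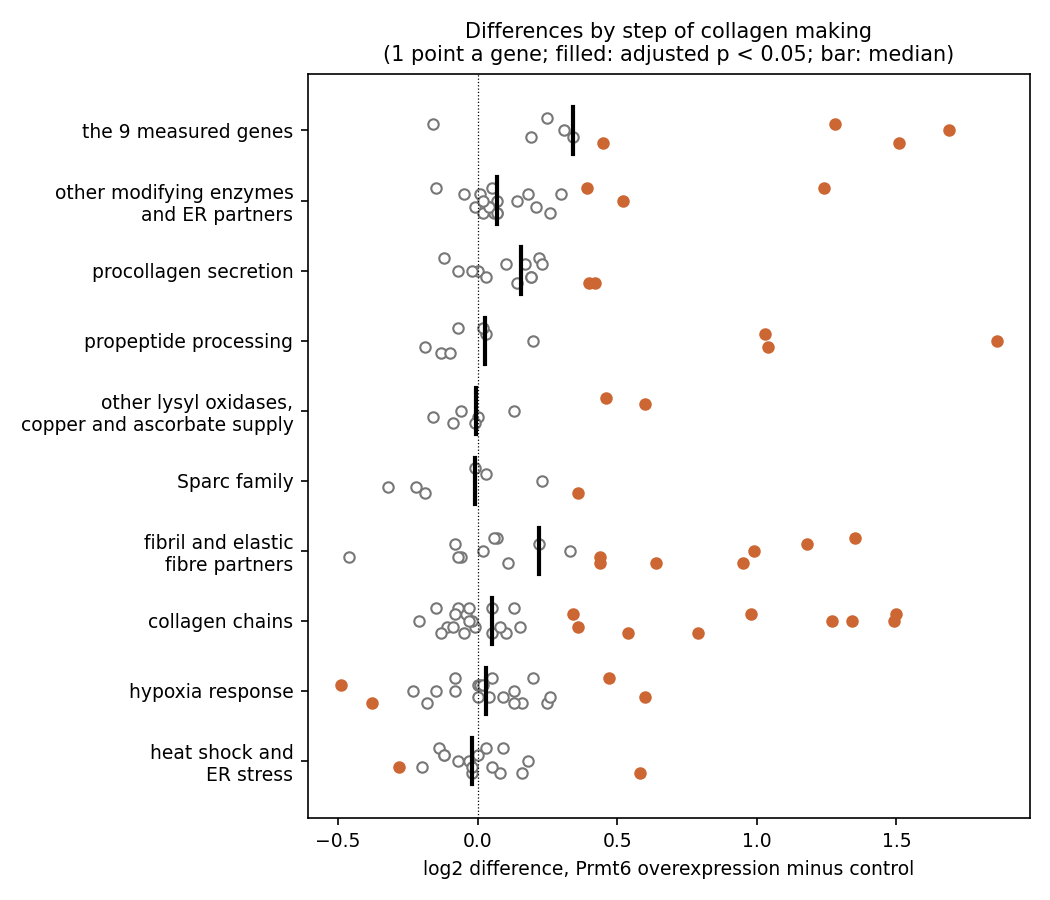
Log2 difference, overexpression minus control (x axis), of each measured gene by list (rows), with filled orange points for an adjusted p under 0.05 and a black bar at the median. The largest rise among the steps is that of Bmp1 at 1.86 in propeptide processing. The other modifying enzymes and ER partners have a median of 0.07, with 18 of 21 differences above 0. The lists of collagen uptake and breakdown, of the TGF-beta and serum response and of cell markers are not drawn.

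Some members belong to wider responses, so lists of these were counted beside them. P4ha1, P4ha2, Plod2 and Lox are known targets of hypoxia signalling. Of 22 hypoxia response genes, 2 rose (Pfkfb3 by 0.60 ± 0.0731 and Ndrg1 by 0.47 ± 0.0901) and 2 fell, with a median of 0.03. That is 9.09% in each direction, beside 7.05% of all genes higher and 3.25% lower. The falls were those of the mitophagy gene Bnip3 (-0.49 ± 0.0731) and, named after its value was seen, Pdk1, a kinase that inhibits pyruvate dehydrogenase (-0.38 ± 0.0718), whose call ended without control replicate 3 (limma adjusted p = 0.0575). The Ndrg1 call ended without control replicate 2 (limma adjusted p = 0.0523) or 3 (0.0507). Without control replicate 2 the list had 1 gene higher and 2 lower, and without control replicate 3 it had 1 in each direction. With either filter on dim genes and with array weights it had 4 higher and 2 lower. It had 3 higher and 2 lower after centring the arrays, with the trended and robust prior, and without overexpression replicate 1 or 3. Serpinh1 is a heat shock gene. Of 17 heat shock and ER stress genes, 1 rose (5.88%), 1 fell (5.88%) and 15 did not pass. Hspb1, a small heat shock protein, rose (0.58 ± 0.0761), and Herpud1, a gene of ER-associated degradation, fell (-0.28 ± 0.0753). The Herpud1 call (adjusted p = 0.0495) ended without any 1 array (limma adjusted p from 0.0662 to 0.184) and after centring the arrays (0.0852). Of 21 genes of the TGF-beta and serum response, 11 rose (52.4%) and 0 fell (median 0.46). The largest rises were those of the tropomyosins Tpm1 (1.76 ± 0.0698) and Tpm2 (1.69 ± 0.0847) and the ligand gene Tgfb2 (1.48 ± 0.148). This list had 1 lower under quantile normalization and with the trended and robust prior.

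Markers of other cell types that make matrix moved in the same arrays as the members. In bulk RNA, more cells of a type and more RNA per cell cannot be told apart. Of 21 parietal and primitive endoderm markers, 10 rose (47.6%) and 0 fell, beside 7.05% and 3.25% of all genes. The 10 became 8 without control replicate 1, 2 or 3, and stayed 10 without any 1 overexpression array. The mean log2 signal of these markers per array was 6.19 to 6.26 in control and 6.72 to 6.77 in overexpression. The largest rises of the list were those of Nid1 (1.88 ± 0.0731), which links laminin to collagen IV, Col4a2 and Col4a1. Col4a1 and Col4a2 were also counted among the collagen chains. Of 17 fibroblast markers, 8 rose (47.1%) and 0 fell. Their mean log2 signal per array was 5.24 to 5.29 in control and 5.55 to 5.61 in overexpression. The 8 became 3 without control replicate 1, 4 without control replicate 3, and 5 without control replicate 2 or overexpression replicate 2 or 3. Col1a1, Col1a2 (0.98 ± 0.0881) and Mmp2 (0.53 ± 0.0775) led the fibroblast list, and Thy1, named after its value was seen, was at 0.04 ± 0.0936 without passing. Col1a1, Col1a2 and Col3a1 were also counted among the collagen chains, and Mmp2 and Fap among the genes of collagen uptake and breakdown. Dcn, Lum, Postn, Fbln1 and Fbln2 were also counted among the fibril and elastic fibre partners. The fibroblast count is therefore not separate from the counts of those lists. Pdgfra stands in both the endoderm and the fibroblast list. None of these markers was listed at 0, since these signals have a background level and no detection call. Among the ES cell markers, Fbxo15 fell by 0.77 and Tdgf1 by 0.35, and Tfcp2l1 rose by 0.37 ± 0.069. The other calls, named after their values were seen, were falls of Nanog and Sox2 and a rise of Nr0b1. Nanog lost its call without control replicate 1, 2 or 3 (limma adjusted p = 0.0564, 0.0552 and 0.0765). Sox2 lost its call whichever array was left out (0.0549 to 0.163) and after centring the arrays (0.111). Nr0b1 lost its call with each array left out except overexpression replicate 1 (0.072 to 0.143), and under quantile normalization (0.14). The Tdgf1 call ended without any 1 control array or overexpression replicate 2 (limma adjusted p from 0.0511 to 0.0864), and that of Tfcp2l1 without control replicate 1 (0.0593) or 3 (0.0508). The part of other cell types in the rises of Serpinh1, Sparc and Lox was not tested.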

How the data were processed

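The authors deposited log2 signals per probe set, made with RMA (robust multi-array average) according to the submitters' processing notes. The version and software are not stated in the labels. RMA gives the arrays nearly equal distributions, which hides a shift common to most genes. The table held 35556 probe sets on 6 arrays, of which 21789 had 1 gene symbol in the platform annotation, and these gave 19938 genes, each read by its probe set with the highest mean. Array medians over all probe sets lay between 5.54 and 5.62, and precision is limited by there being 3 arrays a group.

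Overexpression was compared with control over all genes by lmFit and eBayes (limma 3.58.1, R 4.3.3; two-sided, no covariate, no filter), with Benjamini-Hochberg adjustment over all genes and 0.05 as the threshold. Within-array ratios were tested with scipy 1.17.1 by exact permutation. The procedure was tested on simulated data in 3 runs, with 200 changed genes per run. It recovered 3.33% of differences of 0.3, 44% of 0.5, 87.3% of 1 and 100% of 2 on the log2 scale. Of the calls made there, 3.34% were false. Far fewer genes were changed there than were called in these data (2052), so the shares recovered here may differ.

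The members and gene lists were chosen with earlier results of these data known. Named genes were all members, up to 3 passing genes with the largest change per list, Prmt6, and the 2 genes nearest in profile to each of the 3 members that rose most. Settings tried instead were filters on dim genes, other scalings, probe set rules, variance priors, array weights, stricter thresholds, each array left out, and a replicate block. Protein sequences were not used here.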

Additional observations from a re-analysis of the deposited data

How the results depend on the processing

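Across 16 or 17 alternatives, none of the 9 members reversed. Serpinh1 (1.59 to 1.74), Sparc (1.20 to 1.33) and Lox (1.47 to 1.56) kept their calls in every alternative in which they were tested; Lox and Loxl1 could not be tested after the filter at the median. The Plod2 call ended at an adjusted p threshold of 0.01 and at a minimum of 1.5-fold. Members called higher numbered 7 with the trended and robust variance prior, and 3 to 6 in the other alternatives. Members called lower numbered 0 throughout. The 6 came with either filter on dim genes. Genes called higher also increased with that prior and those filters, as given below. The replicate numbers did not pair the arrays (same-numbered arrays' deviations correlated at -0.019, -0.016 and -0.117, and no control array correlated best with its own number), and with the replicate block 4 members were higher, 1018 genes were higher and 383 lower, and the calls of Slc23a1 (0.0513), Nanog (0.0615), Tdgf1 (0.0666), Nr0b1 (0.11), Sox2 (0.116) and Herpud1 (0.124) ended. Fibroblast markers called higher then numbered 5 in place of 8, and ES cell markers 1 higher and 1 lower in place of 2 and 4.

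Over all genes, 862 to 1232 were higher and 280 to 763 lower without any 1 array. After filtering at the 30th percentile 1832 genes were higher and 990 lower, and after filtering at the median 1937 and 1079. The filters left fewer genes to test, so the shares called rose further than the counts. Quantile normalization gave 1265 higher and 1245 lower, and the trended and robust prior 2061 and 1115. Array weights gave 1706 higher and 1098 lower, and centring arrays on their medians 1838 and 447. At an adjusted p threshold of 0.01 there were 765 higher and 219 lower, and at a minimum of 1.5-fold 532 and 134.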
